A study of Sus scrofa with 9 samples.

Results

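Heat shock proteins, their co-chaperones and the folding machinery of the endoplasmic reticulum (ER) were followed in endothelial cells of the pig coronary artery. Members were genes with a probe set that the platform annotation pairs with exactly 1 symbol, where that symbol belongs to the HSP families, the DNAJ, CCT, PDIA or BAG families, or is TCP1, CALR, CANX, XBP1, ATF4, DDIT3 or HERPUD1. This gave 64 genes of the 6765 genes named by such probe sets, from 111 probe sets, and each gene was read from its brightest probe set. By the compartment in which their proteins work, 41 were grouped as cytosolic, 13 as ER, 6 as mitochondrial, 3 as ER stress factors (XBP1, ATF4 and DDIT3) and 1 as other (HSPB11, a transport protein of cilia that carries the family name). The nucleus was not set apart, so the cytosolic class also holds proteins that work there, such as DNAJC9. HERPUD1, HSPA1A, HSPA1B, CCT3 and CCT5 are not analysed here. Of the 64 genes, 63 were bright enough to be tested; HSPB3, a small heat shock protein of muscle, had signals from 0.66 to 7.99 in the 9 arrays and was not.

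The series holds 9 arrays in 3 groups of 3. Passage 4 cells came from primary cultures passaged once a week and are called senescent in the labels. The regenerated group is endothelium that grew back in the animal after the vessel lining had been removed, then was scraped off and cultured with no further passage. Passage 1 cells were primary cultures kept for 1 week and are the controls. The labels do not say which arrays come from separate animals or cultures, so the p-values reflect the spread among these arrays alone, and that spread may be technical. The RNA input to labelling was 1 ug for passage 4 and passage 1 cells but 0.5 to 1 ug for regenerated cells, so RNA input and group cannot be told apart there.

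Chaperones bind unfolded proteins and keep them from aggregating. In the cytosol, HSP70 works with J-domain co-chaperones and nucleotide exchange factors such as the BAG and HSP110 proteins, HSP90 matures signalling proteins, the ring-shaped TRiC chaperonin folds actin and tubulin, and small heat shock proteins hold unfolding clients without using ATP. In the ER, BiP, GRP94, the lectin chaperones and the disulfide isomerases fold secreted and membrane proteins. Stress-inducible cytosolic genes answer to the factor HSF1 in the heat shock response, while many ER genes answer to ATF6, XBP1 and ATF4 in the unfolded protein response, so both sets can move apart.

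Values are array signals on a linear scale, and differences are given as log2(signal + 16), which understates those of dim genes. The 3 comparisons were fitted together in limma on 15299 probe sets, with Benjamini-Hochberg adjustment over all of them. The threshold was an adjusted p of 0.05. Endothelial markers were bright in every array: PECAM1 lay between 5520 and 9079 and CDH5 between 8524 and 11246. The summed signal of 15 endothelial markers was 29475 to 29857 at passage 4, 27375 to 39374 in regenerated cells and 29203 to 35117 at passage 1, although the brightest probe sets of VWF and KDR were below the filter. Of 13 tested endothelial markers, 9 were lower at passage 4 than at passage 1 (median -0.26), and 9 were lower in regenerated cells than at passage 1 (median -0.20). NOS3, the endothelial nitric oxide synthase, fell by 0.97 at passage 4 against passage 1 (adjusted p = 0.045 in limma). CLDN5, a tight junction protein, fell by 1.62 in regenerated cells against passage 1 (adjusted p = 0.0134). ENG, or endoglin, rose by 1.92 in regenerated cells against passage 1 (adjusted p = 0.0153) and fell by 1.63 at passage 4 against regenerated (adjusted p = 0.0177). None of 7 leukocyte markers passed the filter. In bulk RNA, fewer cells of a type and less RNA per cell cannot be told apart.

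The arrays also differed in their spike-in controls. For the bacterial spike-ins dap and thr, the 5′ signal minus the 3′ signal, on the log2(signal + 16) scale, was -2.41, -1.92 and -1.93 at passage 4. In regenerated cells it was -4.37, -4.64 and -5.31. It was -2.25 in passage 1 array 1, against -4.69 and -4.42 in passage 1 arrays 2 and 3. The arrays therefore form 2 kinds, one with the passage 4 arrays and passage 1 array 1, the other with the regenerated arrays and passage 1 arrays 2 and 3. Passage 4 and regenerated cells can be compared within a kind only through the passage 1 arrays. No label names a labelling batch, so these kinds are defined by the spike-ins alone. A fit with the spike-in kind as a block is given beside the calls and counts that it changes. That fit sets passage 4 against passage 1 array 1 alone and regenerated cells against passage 1 arrays 2 and 3 alone, so a call lost in it does not show that the difference went away.

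Most chaperone genes had similar signals in the 3 groups on their brightest probe sets. Of 63 members, 2 passed the threshold at passage 4 against passage 1, both downward, where 4.79% of all probe sets passed, 2.71% upward and 2.08% downward. In regenerated cells against passage 1, 2 of 63 passed, both upward, against 5.49% of all probe sets and 2.98% upward. Between passage 4 and regenerated cells 7 of 63 passed, 2 upward and 5 downward, against 12.5% of all probe sets, 8.14% upward and 4.35% downward. The share of members past the threshold was thus 3.17%, 3.17% and 11.1% in the 3 comparisons, in each case below that of all probe sets, though by few genes. These shares are not strictly alike, as members were read from their brightest probe sets. Their median standard error was 0.20, against 0.266 over all probe sets. Of 40 dimmer tested probe sets of members, 2, 2 and 10 passed in the 3 comparisons. An unadjusted p under 0.05 was found for 7, 11 and 19 members, where it was found for 19.7%, 22% and 28.6% of all probe sets. Between 47 and 53 of the 63 members differed by at most 0.5 on the log2 scale in a comparison. For all probe sets that share was 73.4%, 70.7% and 65.1%.

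**Figure D1:**
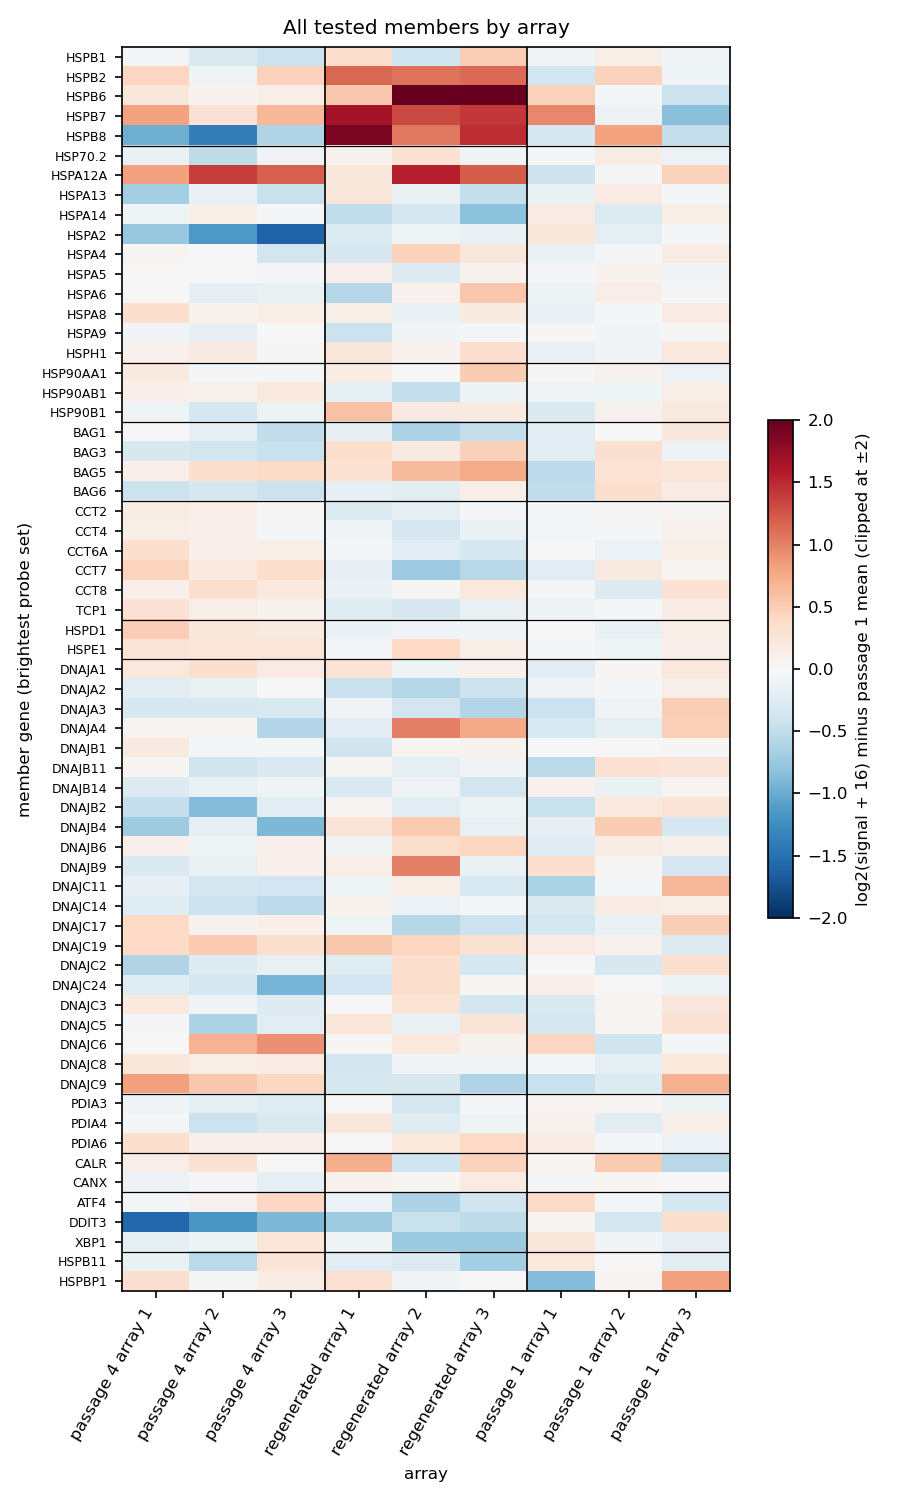
Each row is 1 of the 63 tested members and each column 1 array; the colour is log2(signal + 16) minus the gene's mean over the passage 1 arrays, with values beyond 2 in either direction drawn at 2. Lines separate gene families, with small heat shock proteins at the top and the TRiC subunits, J-domain proteins, disulfide isomerases, lectin chaperones and ER stress factors further down. Most rows are pale in all columns, and the rows of HSPB2, HSPB7 and HSPB8 are red in all 3 regenerated arrays.

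The ER chaperones differed little between groups on their brightest probe sets. None of the 13 ER members passed the threshold in limma in any of the 3 comparisons, and at an unadjusted p under 0.05 the counts were 0 at passage 4 against passage 1, 0 in regenerated cells against passage 1, and 1 (HSP90B1) at passage 4 against regenerated. For all probe sets the shares at an unadjusted p under 0.05 were 19.7%, 22% and 28.6%. All 13 ER members differed by at most 0.5 on the log2 scale in each comparison. HSPA5 encodes BiP, the HSP70 of the ER lumen and a classical target of the unfolded protein response. It had signals of 9548, 9610 and 9346 at passage 4, 10242, 8011 and 10062 in regenerated cells, and 9411, 10083 and 9215 at passage 1. The 3 groups overlap. The log2 difference was -0.01 at passage 4 against passage 1 (95% interval -0.28 to 0.26) and -0.03 in regenerated cells against passage 1 (-0.30 to 0.24).

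HSP90B1, or GRP94, the HSP90 of the ER, had signals of 4328, 3641 and 4280 at passage 4, 6911, 5203 and 5194 in regenerated cells, and 3768, 4866 and 5281 at passage 1. All 3 passage 4 arrays lay below all 3 regenerated arrays, with a log2 difference of -0.49 (SE 0.17, adjusted p = 0.0846 in limma). Calnexin (CANX), the membrane-bound lectin chaperone, had signals of 4955, 5204 and 4727 at passage 4, 5665, 5486 and 6017 in regenerated cells, and 5254, 5478 and 5313 at passage 1. Its groups did not overlap in any comparison, yet the log2 differences were small, at -0.11, 0.10 and -0.21, with adjusted p of 0.678, 0.678 and 0.279. Calreticulin (CALR), its soluble counterpart, varied within groups, from 1765 to 3848 among regenerated arrays and from 1570 to 3354 among passage 1 arrays, against 2330 to 2871 at passage 4. The widest intervals among ER members were those of CALR and of DNAJB9, a co-chaperone of BiP.

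Among the disulfide isomerases, which form and rearrange disulfide bonds, PDIA3 had log2 differences of -0.18 at passage 4 and -0.12 in regenerated cells, each against passage 1. For PDIA4 they were -0.26 and -0.03, and for PDIA6 0.17 and 0.20. Among the J-domain partners of BiP, DNAJB9 was at -0.11 at passage 4 and 0.33 in regenerated cells, DNAJB11 at -0.22 and -0.07, and DNAJC3 at -0.05 and -0.04, each against passage 1. For all of these genes the interval of each difference from passage 1 included 0, which does not show that the levels were equal.

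**Figure D2:**
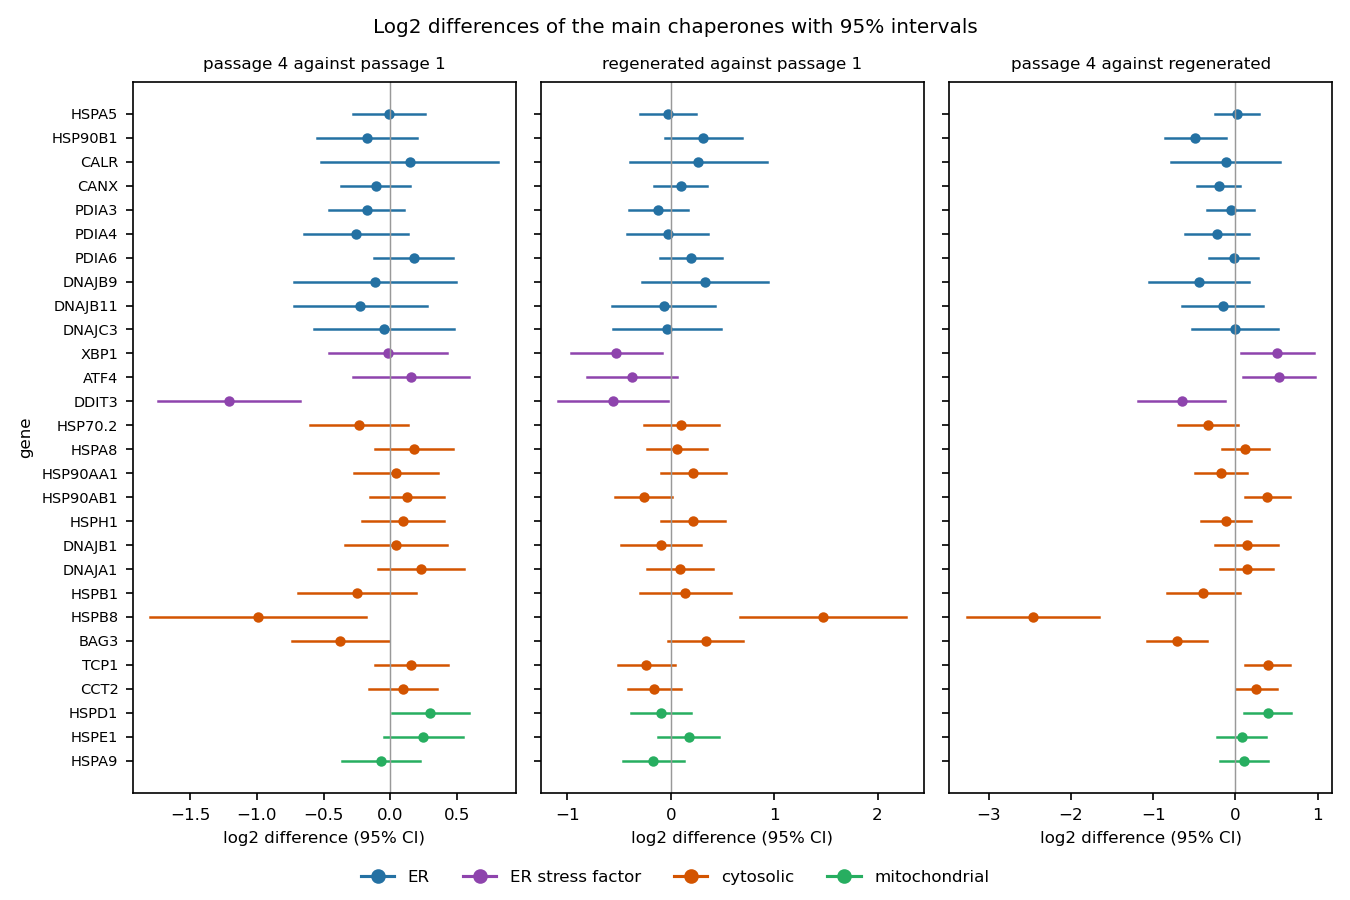
Log2 differences (points) with their 95% intervals (lines) for the main chaperones in the 3 comparisons, 1 panel each, with ER members in blue, ER stress factors in purple, cytosolic members in orange and mitochondrial members in green. The intervals of the ER members in the panels against passage 1 cross 0, while those of HSPB8 and DDIT3 lie away from 0 in more than 1 panel; the horizontal scale differs between panels.

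Of the 3 ER stress factors, DDIT3 passed the threshold and ATF4 and XBP1 did not, each on its brightest probe set. DDIT3 encodes CHOP, a transcription factor downstream of ATF4 that is known for its part in stress-induced cell death. It had signals of 193, 261 and 314 at passage 4, 362, 435 and 418 in regenerated cells, and 609, 471 and 757 at passage 1. The groups did not overlap, with passage 4 lowest and passage 1 highest. DDIT3 fell by 1.21 on the log2 scale at passage 4 against passage 1 (SE 0.24, adjusted p = 0.0193 in limma). In regenerated cells against passage 1 the difference was -0.56 (adjusted p = 0.206), and at passage 4 against regenerated -0.65 (adjusted p = 0.10). With the spike-in kind as a block the difference at passage 4 was -1.23 with adjusted p = 0.139, and the call was also lost without passage 4 array 1, passage 4 array 2 or passage 1 array 3 (adjusted p of 0.0738, 0.0572 and 0.0553).

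ATF4, the effector of the PERK arm, had signals of 8327, 9175 and 11484 at passage 4, 7968, 5630 and 6513 in regenerated cells, and 11233, 8327 and 6801 at passage 1. XBP1, the effector of the IRE1 arm, had 4341, 4618 and 5831 at passage 4, 4656, 2938 and 2944 in regenerated cells, and 5776, 4746 and 4421 at passage 1. For both genes the lowest signals were in regenerated arrays 2 and 3. Neither passed the threshold on its brightest probe set: at passage 4 against regenerated the log2 differences were 0.53 for ATF4 (adjusted p = 0.106) and 0.51 for XBP1 (adjusted p = 0.119). A dimmer ATF4 probe set passed upward there (1.19, adjusted p = 0.0242 in limma), as did ATF4 with its probe sets averaged. That dimmer call was lost with the spike-in kind as a block (0.46) and without any passage 4 array, regenerated array 2 or regenerated array 3. In regenerated cells against passage 1, ATF4 was at -0.37 (adjusted p = 0.304) and XBP1 at -0.53 (adjusted p = 0.15). XBP1 passed there without regenerated array 1, and without that array it also passed upward at passage 4 against regenerated. The XBP1 signal is of total transcript and cannot tell its spliced form apart.

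Among cytosolic members the small heat shock proteins stood out in regenerated cells. Averaged over the 5 tested genes, relative to the passage 1 mean, their log2 level was 0.09, -0.27 and 0.04 in the passage 4 arrays, 1.11, 1.22 and 1.30 in the arrays of regenerated cells, and 0.13, 0.25 and -0.38 in the passage 1 arrays. All 5 were higher in regenerated cells than at passage 1, with a median of 1.46, where the median of all probe sets was -0.01. The filter asks for 3 arrays, so a gene can pass it through 1 group alone. With no filter on dim probe sets 5 of 6 were higher (median 1.29). The stricter filter left 3 genes, without HSPB6 and HSPB7, and all 3 were higher (median 1.12). Without regenerated array 3, 4 of 5 were higher. In the main fit HSPB2 and HSPB8 rose past the threshold. All 5 tested genes were lower at passage 4 than in regenerated cells, with a median of -0.88, and HSPB2, HSPB6 and HSPB8 fell past the threshold there. Against passage 1, 3 of the 5 were higher at passage 4 (2 of the 5 after median centring or quantile normalization), and none passed in limma, with 1 at an unadjusted p under 0.05 (HSPB8). With the spike-in kind as a block all 5 were still higher in regenerated cells than at passage 1 (median 1.31; HSPB2 and HSPB7 past the threshold) and lower at passage 4 than in regenerated cells (median -1.97; none past the threshold), and 1 of the 5 was higher at passage 4 than at passage 1 (median -0.31).

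HSPB8, or HSP22, works with BAG3 to hand misfolded proteins to autophagy. It had signals of 60.2, 41.4 and 82.6 at passage 4, 541, 295 and 404 in regenerated cells, and 104, 246 and 92.0 at passage 1. Passage 4 was lowest and regenerated cells highest, with no overlap between groups. HSPB8 rose by 1.47 on the log2 scale in regenerated cells against passage 1 (SE 0.37, adjusted p = 0.0407 in limma), and its level at passage 4 was lower than in regenerated cells by a log2 difference of -2.46 (SE 0.37, adjusted p = 0.00304). Its difference at passage 4 against passage 1 was -0.99 (adjusted p = 0.159). The call in regenerated cells was lost in 12 of 19 alternatives, with adjusted p from 0.0517 to 0.13, among them leaving out any 1 array other than passage 1 array 2, and the spike-in kind as a block (1.31, adjusted p = 0.0811). The call at passage 4 against regenerated was lost only with the spike-in kind as a block (log2 difference -1.97, adjusted p = 0.167).

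HSPB2 is known from heart and skeletal muscle. It had signals of 695, 487 and 706 at passage 4, 1146, 1108 and 1133 in regenerated cells, and 389, 708 and 482 at passage 1. All 3 regenerated arrays lay above the other 6. HSPB2 rose by 1.12 in regenerated cells against passage 1 (SE 0.24, adjusted p = 0.0205 in limma), and fell by 0.85 at passage 4 against regenerated (SE 0.24, adjusted p = 0.0377). In regenerated cells the call held with the spike-in kind as a block (0.93, adjusted p = 0.0452) and was lost without regenerated array 2, regenerated array 3 or passage 1 array 3 (adjusted p of 0.073, 0.0759 and 0.0599). Its fall at passage 4 against regenerated was lost with that block (-0.28, adjusted p = 0.731) and without any 1 of the 6 arrays compared.

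HSPB6, or HSP20, a regulator of smooth muscle contraction, had signals of 62.9, 54.9 and 58.2 at passage 4, 82.1, 525 and 256 in regenerated cells, and 76.5, 50.5 and 33.8 at passage 1. Regenerated array 1 was close to the other groups and arrays 2 and 3 were far above them. The log2 difference in regenerated cells against passage 1 was 1.85 (SE 0.50, adjusted p = 0.0531), and without regenerated array 1 it was 2.51 (adjusted p = 0.00403). HSPB6 fell by 1.71 at passage 4 against regenerated (adjusted p = 0.0444 in limma), a call lost in 10 of 18 alternatives, among them the block for the spike-in kind (adjusted p = 0.203) and leaving out any passage 4 array, regenerated array 2, regenerated array 3 or passage 1 array 2. HSPB7, known from the heart, had 47.5, 28.6 and 41.5 at passage 4, 99.1, 75.2 and 80.7 in regenerated cells, and 55.1, 17.5 and 4.31 at passage 1, with a difference of 1.46 in regenerated cells against passage 1 (adjusted p = 0.06). It passed without passage 1 array 1 (1.95, adjusted p = 0.00912) and, as that array then no longer enters the comparison, with the block (adjusted p = 0.00922).

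HSPB1, or HSP27, the small heat shock protein that binds actin filaments, did not share this pattern. It had signals of 9137, 7723 and 6991 at passage 4, 11849, 7142 and 13179 in regenerated cells, and 8985, 10166 and 9080 at passage 1. The groups overlap, and the difference in regenerated cells against passage 1 was 0.14 (adjusted p = 0.728). CRYAB, which encodes the small heat shock protein αB-crystallin but whose symbol is outside the rule, lies next to HSPB2 in the RefSeq annotation of Sscrofa11.1, with 0 gene records between them. It had 15098, 13493 and 13689 at passage 4, 17588, 15313 and 24473 in regenerated cells, and 10764, 15400 and 9690 at passage 1, and its difference in regenerated cells against passage 1 was 0.68 (adjusted p = 0.0665).

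Markers of other cell types moved with the regenerated group as well. Of 8 fibroblast markers 7 passed the filter, and ASPN, FAP, THY1 and LUM rose in regenerated cells against passage 1. ASPN, for instance, had 154, 38.8 and 33.9 at passage 4, 1566, 2199 and 1479 in regenerated cells, and 258, 88.9 and 75.1 at passage 1. The summed fibroblast signal was 5424 to 9890 at passage 4, 3112 to 4969 in regenerated cells and 1038 to 1645 at passage 1. POSTN, a matrix protein, made up much of the passage 4 sum, with 5059, 9212 and 4892 at passage 4, 13.1, 1500.0 and 60.2 in regenerated cells, and 1103, 729 and 685 at passage 1. Of 8 smooth muscle markers 6 passed the filter, with summed signals of 17827 to 33498 at passage 4, 32956 to 47397 in regenerated cells and 17808 to 38380 at passage 1. In regenerated cells against passage 1, 5 of these 6 were higher, with a median of 0.63, and SMTN, or smoothelin, rose by 0.89 (adjusted p = 0.0422 in limma). DES and MYOCD, which define muscle cells, were below the filter. CNN1, a calponin of smooth muscle, had 92.1, 15.4 and 79.9 at passage 4, 419, 343 and 387 in regenerated cells, and 399, 147 and 26.1 at passage 1. The part of other cell types in the small heat shock protein signals was not tested.

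**Figure D3:**
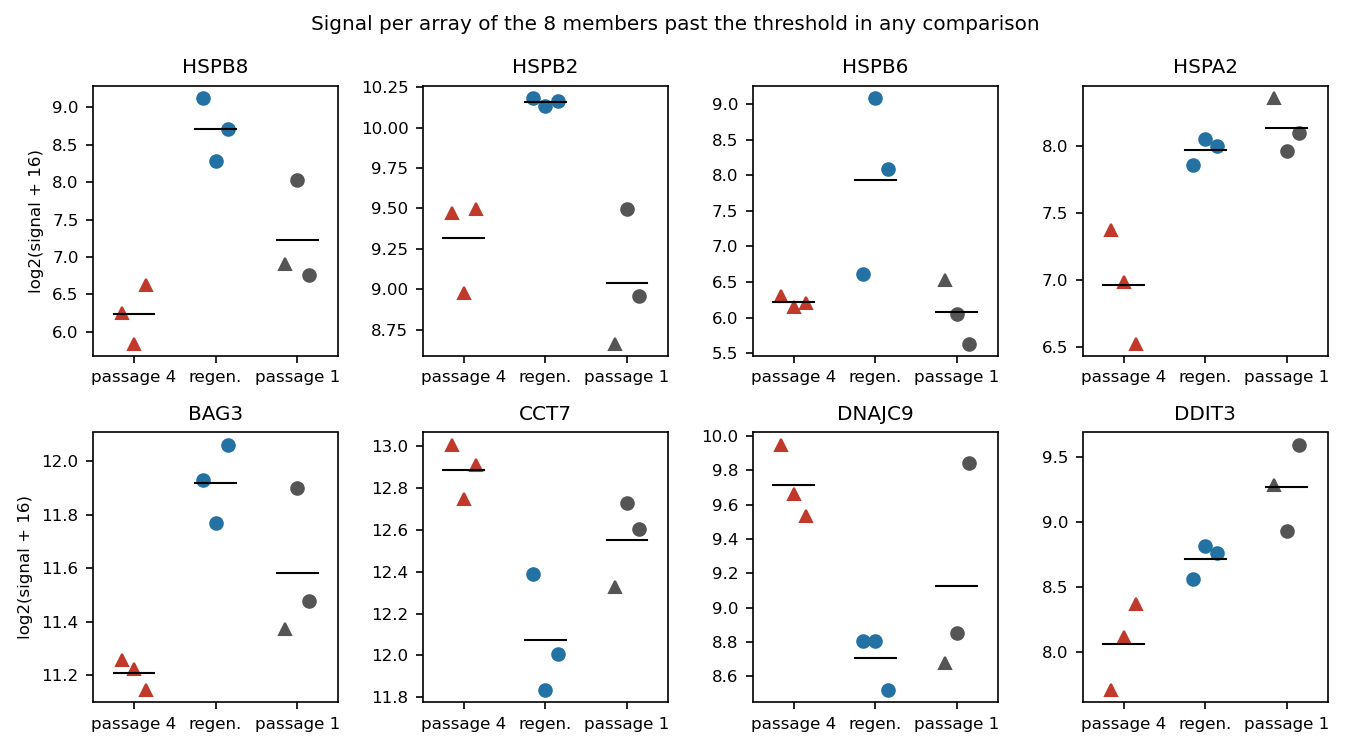
Log2(signal + 16) in each array for the 8 members past the threshold in any comparison, with passage 4 in red, regenerated cells in blue and passage 1 in grey. Triangles are arrays of the spike-in kind that holds the passage 4 arrays and circles those of the other kind, bars are group means, and each panel has its own vertical scale. HSPB8, HSPB2 and HSPB6 are highest in regenerated cells, HSPA2 and DDIT3 lowest at passage 4, and CCT7 and DNAJC9 highest on average at passage 4.

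BAG3, a stress-inducible exchange factor for HSP70 and the partner of HSPB8, had signals of 2432, 2374 and 2246 at passage 4, 3887, 3475 and 4259 in regenerated cells, and 2635, 3805 and 2831 at passage 1. The passage 4 arrays lay below all the others. BAG3 fell by 0.71 at passage 4 against regenerated (SE 0.17, adjusted p = 0.0171 in limma), while the differences from passage 1 were -0.37 at passage 4 and 0.34 in regenerated cells (adjusted p of 0.237 and 0.261). The call was lost with the spike-in kind as a block (-0.40, adjusted p = 0.477) and without passage 4 array 2, passage 4 array 3 or regenerated array 3. A dimmer BAG3 probe set was at 0.71 at passage 4 against regenerated (adjusted p = 0.338), the opposite sign, and with the probe sets averaged the difference was -0.00401 (adjusted p = 0.995). BAG1, BAG5 and BAG6 did not pass in any comparison.

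HSPA2, an HSP70 best known from the testis, had signals of 150, 110.5 and 76.0 at passage 4, 216, 250 and 239 in regenerated cells, and 311, 233 and 257 at passage 1. Every passage 4 array lay below every other array. HSPA2 fell by 1.18 on the log2 scale at passage 4 against passage 1 (SE 0.26, adjusted p = 0.0268 in limma) and by 1.01 against regenerated (SE 0.26, adjusted p = 0.0247). Both calls were lost with the spike-in kind as a block (-1.40 and -1.34, adjusted p of 0.0923 and 0.17), which left the differences no smaller. The first was also lost without passage 4 array 2 or 3 or passage 1 array 2 or 3, and the second without passage 4 array 2 or 3 or regenerated array 2 or 3.

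The chaperones at the core of the heat shock response did not pass the threshold in any comparison. HSP70.2, the stress-inducible HSP70 of the pig major histocompatibility region, had signals of 2799, 2149 and 2910 at passage 4, 3206, 3735 and 2956 in regenerated cells, and 2980, 3407 and 2817 at passage 1. Its log2 differences were -0.23 at passage 4 and 0.10 in regenerated cells, each against passage 1. Closely related HSP70 genes may share probes with it, so its signal may not be its alone. DNAJB1, the stress-inducible HSP40, had differences of 0.04 and -0.09, and HSPH1, the inducible HSP105, 0.10 and 0.21, at passage 4 and in regenerated cells against passage 1. HSPA8, the constitutive HSC70, had 0.18 and 0.06. DNAJA1, a J-domain partner of HSC70, had 0.23 and 0.09. A dimmer DNAJA1 probe set was at 0.49 and 1.16 (adjusted p of 0.457 and 0.0601 in limma). Dimmer tested HSPA8 probe sets were at -0.19 and -0.80 at passage 4 and at 0.40 and -0.19 in regenerated cells, each against passage 1. None of these passed the threshold. On the brightest probe sets of HSP70.2, DNAJB1, HSPH1 and HSPA8 the adjusted p in the comparisons with passage 1 ran from 0.407 for HSPH1 to 0.927 for DNAJB1.

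Neither cytosolic HSP90 gene passed the threshold on its brightest probe set. HSP90AB1, the constitutive form, had signals of 13299, 13248 and 14218 at passage 4, 10822, 8907 and 11606 in regenerated cells, and 11990, 11759 and 13692 at passage 1. The passage 4 arrays lay above the regenerated arrays, at a log2 difference of 0.39 (adjusted p = 0.0667). HSP90AA1, the inducible form, was at -0.17 in the same comparison (adjusted p = 0.465), with overlapping groups, and at 0.31 with its probe sets averaged. A dimmer HSP90AA1 probe set had 348, 819 and 565 at passage 4, 139, 152 and 149.8 in regenerated cells, and 325, 43.1 and 60.7 at passage 1. It passed upward at passage 4 against passage 1 (2.28, adjusted p = 0.0362), with passage 1 array 1 close to the lowest passage 4 array. That call was lost in 12 of 19 alternatives, among them the spike-in kind as a block (0.72, adjusted p = 0.507) and leaving out any passage 4 array, regenerated array 2 or 3, or passage 1 array 2 or 3. HSPA12A, a distant HSP70 relative with no classical chaperone role, had dim signals of 42.5, 70.16 and 59.9 at passage 4, 22.6, 81.0 and 60.8 in regenerated cells, and 8.75, 16.2 and 29.3 at passage 1. Its difference of 1.14 at passage 4 against passage 1 did not pass (adjusted p = 0.121).

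The 6 measured subunits of the TRiC chaperonin lay on one side together. Averaged and relative to the passage 1 mean, they were at 0.24, 0.16 and 0.12 in the passage 4 arrays, -0.15, -0.29 and -0.16 in the arrays of regenerated cells, and -0.07, -0.05 and 0.12 in the passage 1 arrays. Subunits of a complex measured on the same arrays are not independent of each other. All 6 were higher at passage 4 than in regenerated cells, with a median of 0.31, and CCT7 was the one past the threshold; after quantile normalization CCT2, CCT4 and TCP1 passed as well. Against passage 1 all 6 were higher at passage 4 with a median of 0.17 and none passed in limma, nor at an unadjusted p under 0.05; after centring each array on its median 4 of 6 were higher, with a median of 0.01. CCT7 had signals of 8211, 6859 and 7683 at passage 4, 5346, 3634 and 4094 in regenerated cells, and 5125, 6773 and 6206 at passage 1. Its passage 4 arrays lay above all others. CCT7 rose by 0.81 at passage 4 against regenerated (SE 0.17, adjusted p = 0.0103 in limma); of 19 alternatives only the spike-in kind as a block lost the call (1.15, adjusted p = 0.106). TCP1, the alpha subunit, was at 0.40 in that comparison (adjusted p = 0.0612) and CCT2, the beta subunit, at 0.26 (adjusted p = 0.172).

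Of the 22 J-domain proteins, 14 cytosolic, 5 ER and 3 mitochondrial, DNAJC9 passed the threshold. DNAJC9 is a co-chaperone for histones. It had signals of 972, 795 and 725 at passage 4, 431, 431 and 351 in regenerated cells, and 394, 447 and 901 at passage 1. Passage 1 array 3 lay within the passage 4 range and the other passage 1 arrays within or near the regenerated range. DNAJC9 rose by 1.01 at passage 4 against regenerated (SE 0.28, adjusted p = 0.0391 in limma), a call lost in 11 of 19 alternatives, among them median centring (adjusted p = 0.0621), the block for the spike-in kind (1.68, adjusted p = 0.125) and leaving out any 1 of the 6 arrays compared. DNAJB4, a stress-inducible J-domain protein, was at -0.81 in that comparison (adjusted p = 0.0693), and DNAJA2 at -0.48 in regenerated cells against passage 1 (adjusted p = 0.0709).

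None of the 6 mitochondrial members passed in limma, with 1 at an unadjusted p under 0.05 in each comparison. Of all probe sets, 4.79%, 5.49% and 12.5% passed and 19.7%, 22% and 28.6% had an unadjusted p under 0.05. An absence of calls among 6 genes therefore says little. HSPD1, the mitochondrial HSP60, had signals of 8151, 6832 and 6594 at passage 4, 5274, 5572 and 5493 in regenerated cells, and 5849, 5315 and 6314 at passage 1. Every passage 4 array lay above the other 6. The differences were 0.30 against passage 1 (adjusted p = 0.23) and 0.39 against regenerated (adjusted p = 0.0705). HSPE1, its co-chaperonin HSP10, was at 0.25 and 0.07 in those comparisons, and HSPA9, the mitochondrial HSP70, at -0.07 and 0.10.

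Set side by side, ER and cytosolic members were separated by little. The median log2 difference at passage 4 against passage 1 was -0.15 over 13 ER members, 11 of them lower, and 0.05 over 40 cytosolic members, 17 of them lower, where the median over all probe sets was 0.04 and 53.9% were higher. In regenerated cells against passage 1 the medians were -0.03 for ER members, 8 of them lower, and 0.04 for cytosolic members, 18 of them lower, where 49.4% of all probe sets were higher. Between passage 4 and regenerated cells they were -0.16 and -0.12, with 11 of 13 ER and 21 of 40 cytosolic members lower at passage 4, where 50.7% of all probe sets were higher. With the spike-in kind as a block, 7 of 13 ER and 14 of 40 cytosolic members were lower at passage 4 than at passage 1 (medians -0.08 and 0.09), and 9 of 13 and 15 of 40 were lower at passage 4 than in regenerated cells (medians -0.10 and 0.20). After centring each array on its median, 12 of 13 ER and 26 of 40 cytosolic members were lower at passage 4 than at passage 1 (medians -0.31 and -0.11), and 13 of 13 and 23 of 40 were lower at passage 4 than in regenerated cells (medians -0.28 and -0.25). The split of all members depended on the setting. At passage 4 against passage 1 it was 29 higher and 34 lower, 18 and 45 after median centring (which moves the median of all probe sets to -0.12), 37 and 26 with the block, and 36 and 27 with probe sets averaged. Between passage 4 and regenerated cells it was 28 higher and 35 lower at passage 4, 21 and 42 after median centring, and 35 and 28 with the block or with averaged probe sets.

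Within single arrays, the mean of the ER members minus that of the cytosolic members, relative to passage 1, was -0.13, -0.10 and -0.13 on the log2 scale at passage 4 (mean -0.121 ± 0.017, SD, n = 3). It was 0.08, -0.17 and -0.22 in regenerated cells (mean -0.101 ± 0.16), and 0.06, 0.06 and -0.11 at passage 1. The passage 4 values were close to each other but passage 1 array 3 lay among them, and the regenerated values spanned 0. Without the small heat shock proteins the regenerated values were 0.23, -0.02 and -0.06. The groups' arrays did not overlap for 2 of 13 ER and 6 of 40 cytosolic members at passage 4 against passage 1, for 1 and 10 in regenerated cells against passage 1, and for 3 and 21 at passage 4 against regenerated, where 24.9%, 23% and 36.2% of all probe sets did not overlap.

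**Figure D4:**
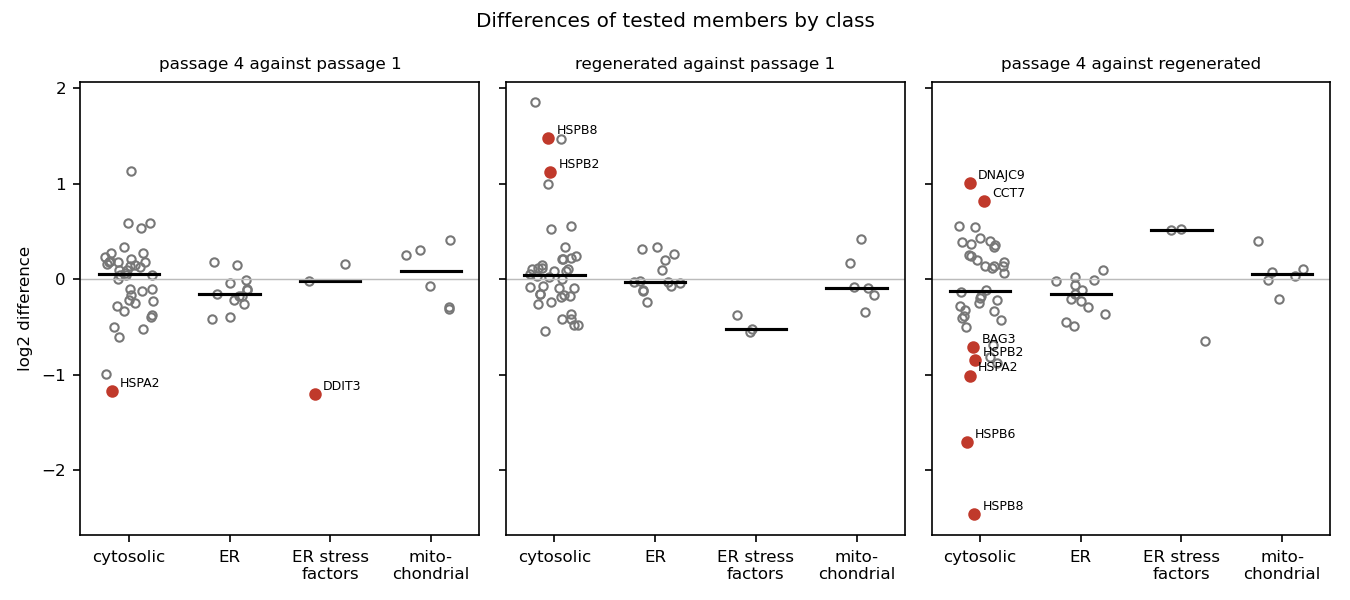
Log2 differences of the tested members by class in the 3 comparisons, 1 panel each; red points with names are past the threshold, open points are not, and bars are medians. The 13 ER members lie within 0.5 of 0 in each panel, and the named points are cytosolic apart from DDIT3.

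Other probe sets of the same genes limit how far the ER result goes. For 24 members there were 40 further probe sets that passed the filter. Their difference had the same sign as that of the brightest probe set in 18, 24 and 15 of 40 cases in the 3 comparisons, taken in the order above. Between passage 4 and regenerated cells 10 of the 40 passed the threshold, all upward, and the brightest probe set of none of those genes passed. A dimmer PDIA3 probe set had 2472, 2291 and 2294 at passage 4, 397, 257 and 244 in regenerated cells, and 2712, 499 and 531 at passage 1. Passage 1 array 1 was thus level with the passage 4 arrays, as in the spike-ins. Its log2 difference at passage 4 against regenerated was 2.94 (adjusted p = 0.0052 in limma) and, with the spike-in kind as a block, 0.58 (adjusted p = 0.419).

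The same order of arrays appeared in a dimmer probe set each of PDIA4, HSPA9, DNAJB6, ATF4 and HSP90AA1. That of PDIA4 had 614, 591 and 529 at passage 4, 143, 39.3 and 4.96 in regenerated cells, and 448, 121 and 206 at passage 1. That of HSPA9 had 194, 288 and 195 at passage 4, 15.4, 10.9 and 27.04 in regenerated cells, and 197, 22.3 and 13.2 at passage 1. Again passage 1 array 1 sat with passage 4 and not with the other passage 1 arrays. All 10 calls of dimmer probe sets at passage 4 against regenerated were lost with the spike-in kind as a block, but their differences moved unequally. That of HSPA9 went to 0.17, against 2.84 without the block, and that of DNAJB6 to 0.74, against 2.17. That of PDIA4 went to 1.97, against 3.38, and that of HSPA13, an ER member, to 0.54, against 1.22. Dimmer probe sets of CCT6A (1.59, against 1.41 without the block), DNAJC8 (1.15 against 1.09), CANX (1.34 against 0.995) and CCT4 (1.32 against 1.51) kept differences of about the same size or more. When the probe sets of a gene were averaged, the ER medians at passage 4 turned to 0.15 against passage 1 and 0.02 against regenerated, and PDIA3 and PDIA4 passed upward at passage 4 against regenerated.

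A dimmer HSP90B1 probe set departed from the spike-in order in the regenerated arrays, which were high. Within passage 1 it kept that order, with array 1 the highest. It had 2070, 2477 and 3814 at passage 4, 3572, 2363 and 2595 in regenerated cells, and 1532, 846 and 1164 at passage 1. Both other groups lay above passage 1, by 1.22 at passage 4 (adjusted p = 0.0282 in limma) and 1.27 in regenerated cells (adjusted p = 0.0202), while the brightest probe set of HSP90B1 was at -0.17 and 0.31. The regenerated call held with the spike-in kind as a block (1.48, adjusted p = 0.0139) and was lost without regenerated array 2 or 3 or passage 1 array 2 or 3. The passage 4 call was lost with that block (0.81, adjusted p = 0.347), without the intensity trend, and without passage 4 array 2 or 3 or passage 1 array 2 or 3. The probe sets of HSP90B1 therefore disagree on whether it differed from passage 1.

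**Figure D5:**
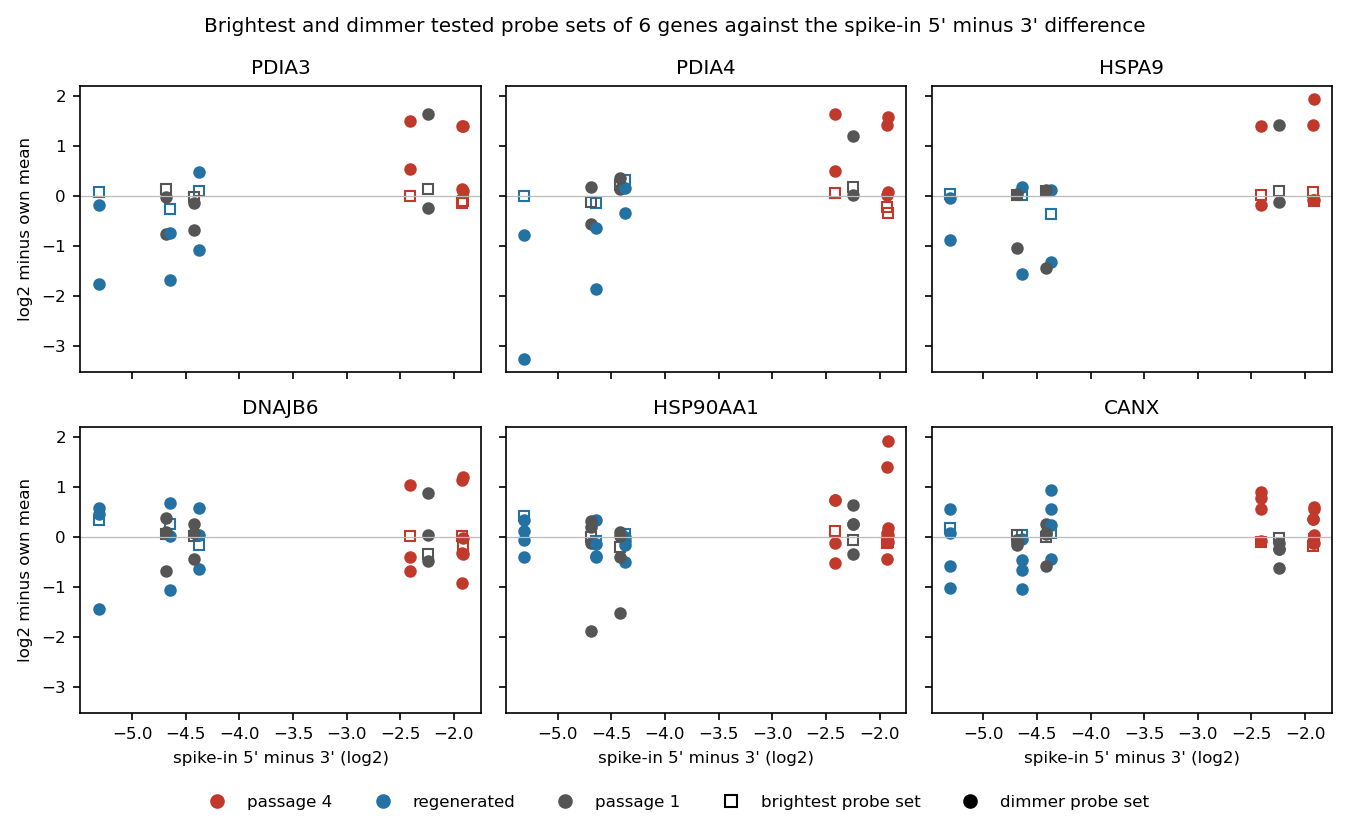
For 6 genes with several tested probe sets, log2(signal + 16) minus the probe set's own mean over 9 arrays is plotted against the 5′ minus 3′ difference of the spike-ins in that array, with open squares for the brightest probe set and filled circles for the dimmer ones. The 6 genes were chosen after their values were seen. The squares stay near 0 across the plot. In contrast, 1 dimmer probe set each of PDIA3, PDIA4, HSPA9, DNAJB6 and HSP90AA1 is high in the arrays on the right (passage 4 and passage 1 array 1). These probe sets are low in most of the arrays on the left, and other circles do not share that order.

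Genes that work with the chaperones were read from lists chosen with earlier results of these data known. Of 21 tested partners of HSF1, HSP70 and HSP90, HSF2, a heat shock transcription factor, rose by 0.69 at passage 4 against passage 1 (adjusted p = 0.0352 in limma), a call lost in 10 of 19 alternatives, among them leaving out any passage 4 array, regenerated array 3 or passage 1 array 2. FKBP4, a cochaperone of HSP90 and steroid receptors, fell by 1.16 in regenerated cells against passage 1 (adjusted p = 0.0211; lost without regenerated array 2 or 3 or passage 1 array 2 or 3), with signals of 1254, 885 and 942 in regenerated cells against 1518, 2539 and 3108 at passage 1. SQSTM1, the autophagy receptor p62, had 3663, 4061 and 4846 at passage 4 against 7486, 6831 and 8456 in regenerated cells, a fall by 0.86 (adjusted p = 0.00639). No tested gene passed among 10 of prefoldin and tubulin folding, 7 of mitochondrial protein quality control and 12 of ER-associated degradation, where 0, 0 and 0 had an unadjusted p under 0.05 at passage 4 against passage 1, 1, 2 and 2 in regenerated cells against passage 1, and 1, 2 and 1 at passage 4 against regenerated. Of all probe sets, 4.79%, 5.49% and 12.5% passed in the 3 comparisons, and 19.7%, 22% and 28.6% had an unadjusted p under 0.05. An absence of calls in lists of 7 to 12 genes therefore says little about them.

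Of 26 tested other folding enzymes of the ER, 22 were lower at passage 4 than at passage 1, with a median of -0.29, where 46.1% of all probe sets were lower. With the spike-in kind as a block 15 of 26 were lower, with a median of -0.03, so that count depended on the block. Against regenerated cells 22 of 26 were lower at passage 4 without the block (median -0.33) and 11 of 26 with it (median 0.04), where 49.3% of all probe sets were lower. ERO1A and PLOD3 fell past the threshold against passage 1, which 2.08% of all probe sets did. ERO1A, the oxidase that recharges disulfide isomerases, had 219, 228 and 228 at passage 4, 345, 266 and 271 in regenerated cells, and 566, 442 and 393 at passage 1, and fell by 0.99 at passage 4 against passage 1 (adjusted p = 0.0268 in limma), a call lost without any 1 passage 4 array or passage 1 array 2. PLOD3, a collagen lysyl hydroxylase, fell by 0.82 against passage 1 (adjusted p = 0.0345) and by 0.92 against regenerated (adjusted p = 0.0104); the first call was lost in 10 of 19 alternatives, among them leaving out any passage 4 array, regenerated array 3, or passage 1 array 2 or 3. In regenerated cells against passage 1, 13 of the 26 were higher, and QSOX1 and FKBP9 passed upward, which 2.98% of all probe sets did. FKBP9 lost its call without any 1 regenerated array or passage 1 array 2 or 3. QSOX1, a disulfide-forming oxidase of the secretory pathway, had 863, 1292 and 796 at passage 4, 3231, 4043 and 3285 in regenerated cells, and 1330, 2036 and 1388 at passage 1. Regenerated cells lay above both other groups without overlap, by 1.16 against passage 1 (adjusted p = 0.0139). That call held with the spike-in kind as a block (1.05, adjusted p = 0.0346) and was lost in 1 of 19 alternatives, without regenerated array 2. Relative to regenerated cells QSOX1 at passage 4 fell by 1.85 (adjusted p = 0.00118) and FKBP14, a collagen prolyl isomerase, by 1.36 (adjusted p = 0.00326). Of all probe sets 4.35% fell past the threshold there.

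Of 28 tested genes of the ER translocon and of glycosylation, SPCS3, a signal peptidase subunit, fell by 1.04 in regenerated cells against passage 1 (adjusted p = 0.042 in limma) and SERP1, a stress-associated ER membrane protein, by 0.53 at passage 4 against regenerated (adjusted p = 0.0429). Of all probe sets, 2.51% and 4.35% fell past the threshold in these comparisons. Both calls were lost in 11 of 19 alternatives, among them leaving out any passage 4 array, regenerated array 2, regenerated array 3 or passage 1 array 2; passage 1 array 3 (SPCS3) and regenerated array 1 (SERP1) did so for 1 gene each. Of 15 tested genes of unfolded protein response signalling, 4 were higher at passage 4 than at passage 1 (median -0.19). In regenerated cells against passage 1, 4 of 15 were higher as well (median -0.44), and none passed the threshold. For all probe sets 53.9% and 49.4% were higher in these comparisons. At passage 4 against regenerated 8 of 15 were higher (median 0.117), where 50.7% of all probe sets were. PPP1R15A and CEBPB fell past the threshold at passage 4 against passage 1, which 2.08% of all probe sets did. PPP1R15A, or GADD34, the phosphatase subunit that restores translation after stress and a target of CHOP, had 152, 147 and 156 at passage 4, 341, 303 and 338 in regenerated cells, and 223, 527 and 343 at passage 1. CEBPB, a transcription factor that pairs with CHOP, had 801, 1242 and 1547 at passage 4, 1981, 2154 and 2178 in regenerated cells, and 2612, 2427 and 1998 at passage 1. Both lay below the other groups in every passage 4 array, as DDIT3 did, with differences of -1.10 and -1.003 against passage 1 (adjusted p of 0.0448 and 0.0286). The PPP1R15A call was lost in 13 of 19 alternatives, among them leaving out any 1 array but passage 1 array 1, and the CEBPB call in 7, among them leaving out passage 4 array 1 or 2 or passage 1 array 2. With the spike-in kind as a block these were -0.51 and -1.17 (adjusted p of 0.525 and 0.121). Each call on these companion genes at passage 4 against either group was lost with that block. The differences of ERO1A (-1.27), HSF2 (0.80), FKBP14 (-1.64) and QSOX1 (-1.51 against regenerated) stayed about as large or grew, while those of PLOD3 were -0.47 against passage 1 and -0.40 against regenerated. PPP1R15A and CEBPB also fell past the threshold at passage 4 against regenerated (-1.03 and -0.855), calls lost in 8 and 6 of 19 alternatives. With the block those differences were -0.147 and -1.10. For SQSTM1 and SERP1 against regenerated they were -0.604 and -0.605, from -0.859 and -0.534 without the block. The calls in regenerated cells against passage 1 (FKBP4, FKBP9, QSOX1 and SPCS3) held with the block. That fit keeps passage 1 arrays 2 and 3 beside the regenerated arrays but only passage 1 array 1 beside the passage 4 arrays. Calls kept in one comparison and lost in another therefore cannot be weighed against each other.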

How the data were processed

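The authors deposited 1 intensity per probe set and array on a linear scale, named as MAS5 signals per the submitters' processing notes; no source used here gives its version or scaling target. Every array had the same 2% trimmed mean, 500.1, so values were used as deposited, and the number of arrays limits the precision. Array medians were 86.5 to 109. From 24123 probe sets, 124 controls were left out, and 15299 lay above their array's 40th percentile in at least 3 of 9 arrays. Log2(signal + 16) was fitted over all 9 arrays with limma 3.58.1 in R 4.3.3 (eBayes with an intensity trend, 6 residual and 5.65 prior degrees of freedom), two-sided, with Benjamini-Hochberg adjustment. The steps were tested on simulated data with independent values and no difference between the spike-in kinds, so that test does not bear on those kinds.

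Members and lists were chosen with earlier results of these data known. Members past the threshold are named, with a fixed panel of classical chaperones and, from each companion list, up to 6 genes past the threshold; others are named after their values were seen. Symbols come from the platform annotation; 63 of 64 members were found in the RefSeq genes of Sscrofa11.1, with 0 changed symbols. Sequences are not analysed here, and coordinates were used only to place CRYAB beside HSPB2. Same-numbered arrays did not deviate together (correlations from -0.138 to 0.186), so the numbers were not taken as pairs. Alternatives covered the pseudocount (1, 64), the filter (none, 60th percentile), median and quantile normalization, no intensity trend, only the compared groups, replicate and spike-in blocks, averaged probe sets and each array left out.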

Additional observations from a re-analysis of the deposited data

Results flagged for a closer look

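For 4 members the difference from passage 1 had opposite signs at passage 4 and in regenerated cells, and the difference between those effects, which equals passage 4 against regenerated, passed the threshold in limma. HSPB8 was at -0.99 at passage 4 and 1.47 in regenerated cells, a difference of -2.465 (adjusted p = 0.00304). BAG3 was at -0.37 and 0.34, a difference of -0.7126 (adjusted p = 0.0171). CCT7 was at 0.33 and -0.48, a difference of 0.8122 (adjusted p = 0.0103). DNAJC9 was at 0.59 and -0.42, a difference of 1.006 (adjusted p = 0.0391). Of these 8 differences from passage 1, that of HSPB8 in regenerated cells passed the threshold and the other 7 did not. None of the 4 passed with the spike-in kind as a block, and the part of the spike-in difference was not tested beyond that fit.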

How the results depend on the processing

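None of the 11 calls on members changed sign in any alternative run, and 22 of 178 member comparisons not past the threshold passed in at least 1. With the spike-in kind as a block, the members past the threshold numbered 0 at passage 4 against passage 1 and 0 against regenerated (cytosolic 0 and 0), where 150 and 35 of 15299 probe sets passed in place of 733 and 1912; the cytosolic median against regenerated was 0.196 and the ER medians -0.083 and -0.104. Fitting only the compared groups gave 1 member (cytosolic 0) at passage 4 against passage 1 and 1 (cytosolic 1) in regenerated cells against passage 1. No filter on dim probe sets gave 1 (cytosolic 1) in regenerated cells and 4 (cytosolic 4) at passage 4 against regenerated, and no intensity trend gave 4 (cytosolic 4) in the last comparison. Quantile normalization gave 12 members (cytosolic 11) there and an ER minus cytosolic mean of -0.085 at passage 4. Averaging the probe sets of a gene gave 13 members there, 2 of them ER, 1 ER member (HSP90B1) in regenerated cells against passage 1, an ER minus cytosolic mean of 0.107, ER medians at passage 4 of 0.146 and 0.018, and a cytosolic median against regenerated of 0.048. Median centring moved the cytosolic medians at passage 4 to -0.106 and -0.25, and the ER medians to -0.312 and -0.281. A stricter filter gave a cytosolic median of 0.09 against regenerated and an ER minus cytosolic mean of -0.087, and log2(signal + 1) gave an ER minus cytosolic mean of -0.144; the cause of these shifts was not tested. With the replicate block, whose numbers do not pair the arrays, 0 members (cytosolic 0) passed in regenerated cells against passage 1, and all probe sets past the threshold there went to 554, against 840 without it.

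Leaving out 1 array at a time gave 0 to 3 members (cytosolic 0 to 2) at passage 4 against passage 1, 0 to 5 (cytosolic 0 to 4) in regenerated cells against passage 1, and 2 to 7 (cytosolic 2 to 7) at passage 4 against regenerated. The ER medians at passage 4 ran from -0.182 to -0.107 and from -0.211 to -0.106, the cytosolic median against regenerated from -0.229 to -0.004, and the ER minus cytosolic mean at passage 4 from -0.177 to -0.093. Alternatives for the companion genes and lists and the dimmer probe sets were chosen after seeing the data. With 3 arrays a group, small differences cannot be resolved: the median standard error over members was 0.20 on the log2 scale.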
